A study of Mus musculus with 18 samples.

Results

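Neurons in which Hoxc8 had been switched on for 48 h were compared with control neurons of the same day across all genes. The comparison holds 6 of the 18 RNA-seq libraries of the study, 3 of iHoxc8 neurons and 3 of control neurons, and they were chosen by their labels alone. All 18 libraries entered the fit that gave the tests below. The others were iHoxc6, iHoxc9 and iHoxc10 neurons and 3 libraries of day 2 progenitors. These progenitors were labeled iCre, had no Dox and were sequenced in a separate run. The study asked how Hox transcription factors give spinal motor neurons (MNs) different identities, and it induced Hoxc6, Hoxc8, Hoxc9 or Hoxc10 in differentiating mouse embryonic stem cells (ESCs). The replicates of a group were independent differentiations, as the study states. The iHoxc8 neurons came from the line Ainv15(iFlag.Hoxc8), which carries a single copy of a Flag-tagged Hoxc8 transgene at the Hprt locus under a doxycycline (Dox) inducible promoter. The control neurons came from the line Ainv15(iFlag.Hoxc6), which carries Hoxc6 at the same place, and received no Dox. Both were grown as embryoid bodies with 1 µM retinoic acid (RA) and 0.5 µM of the Hedgehog agonist SAG, and both were collected on day 4. The iHoxc8 cultures had 3 µg/ml Dox from day 2. These cultures mix MNs with interneurons, so fewer cells of a type and less RNA per cell cannot be told apart. The transgene, the Dox, the cell line and the sequencing run all differ between the groups, and 0 of the 4 runs held both. Their parts in any difference below therefore cannot be told apart.

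Hox genes lie in 4 clusters and are switched on along the body axis in the order in which they lie on the chromosome, with early paralog groups at rostral and late groups at caudal levels. In the spinal cord, Hox proteins work with Pbx and Meis cofactors to give MNs their columnar and pool identities. Hoxc8 is known for the brachial cord, where it acts in lateral motor column (LMC) neurons that innervate the limb. Foxp1, a transcription factor, and Aldh1a2, the enzyme that makes RA, mark LMC neurons.

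Read counts per gene as the authors deposited them were scaled to counts per 1000000 (CPM) with edgeR's TMM factors, and levels below are these CPM as mean ± SD over n = 3 libraries. Differences are log2 fold changes of iHoxc8 minus control, and p-values are from edgeR's quasi-likelihood test, adjusted by the Benjamini-Hochberg method over 20944 genes. SE stands for standard error, on the log2 scale. A gene is said to have risen or fallen when its adjusted p was under 0.01. For some lists, counts at an unadjusted p under 0.05 are given as well. Of all 20944 genes, 2482 were higher and 2383 lower at that level in edgeR. For some lists, counts by DESeq2's Wald test at an adjusted p under 0.01 are given too. Over all genes that test called 513 higher and 823 lower, more than edgeR. A list count close to the share of its own test does not set the list apart from the other genes. Total counts were 26114986 to 32670273 per library, so that 3 counts stood for 0.0918 to 0.115 CPM, which covers counting error only. Replicates were distinct libraries. The chi-square of counts per degree of freedom was 7.33 between iHoxc8 replicates 1 and 3 and 59.4 and 75.4 between either of these and replicate 2. In control it was 47.02 between replicates 1 and 3 and 78.7 and 155 between these and replicate 2.

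The induced gene separated the groups. Hoxc8 (chromosome 15, 102990539 to 102994275, GRCm38) had 1, 0 and 2 counts in control replicates 1 to 3 and 13438, 12276 and 11542 counts in iHoxc8 replicates 1 to 3. Over the 3 libraries, 3 counts in control stood against 37256 in iHoxc8, a ratio of 10873 after scaling (95% counting interval 3720 to 52725). These reads do not separate the transgene from the endogenous gene. The LMC markers were present in both groups and higher in iHoxc8. Foxp1 (chromosome 6, 98925342 to 99522746) stood at 74.7, 51.1 and 46.3 CPM in control and at 206, 136 and 192 CPM in iHoxc8. Aldh1a2 (chromosome 9, 71215789 to 71296243) stood at 34.95, 27.5 and 24.7 CPM in control and at 73.5, 93.9 and 52.4 CPM in iHoxc8. For both genes every iHoxc8 library lay above every control library. Foxp1 rose by 1.63 on the log2 scale (SE 0.18, adjusted p = 1.08e-05 by edgeR) and Aldh1a2 by 1.33 (SE 0.21, adjusted p = 0.000614). Among all genes tested, 19.8% had no overlap between the groups.

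Across the transcriptome, 443 genes (2.12% of those tested) passed an adjusted p of 0.01. Of these, 215 (1.03%) rose and 228 (1.09%) fell. With a log2 fold change beyond 2 as well, the thresholds of the study, 46 genes (0.22%) were called, 29 higher (0.138%) and 17 lower (0.0812%). The median log2 fold change was 0.02 over all genes tested. The counts moved with single libraries. Without control replicate 2 there were 668 higher and 907 lower genes at an adjusted p under 0.01 in edgeR, and without control replicate 3 there were 61 and 28. Without iHoxc8 replicates 1, 2 or 3 there were 78, 332 or 82 higher and 38, 357 or 41 lower genes, and without control replicate 1 there were 127 lower genes.

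**Figure D1:**
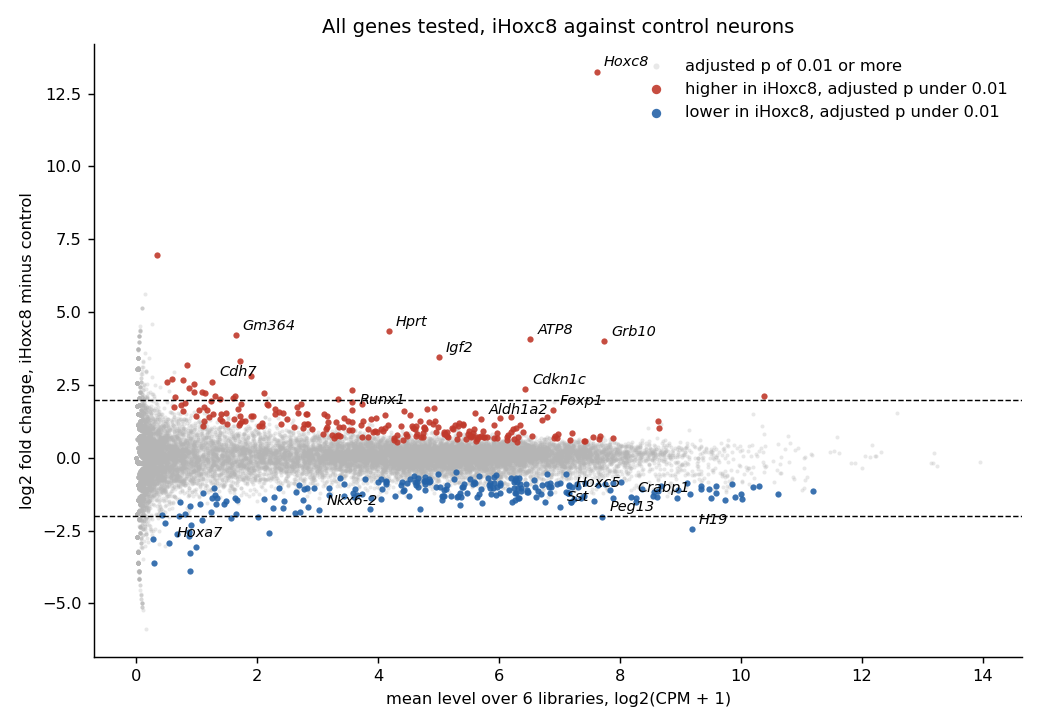
Each point is a gene of the 20944 tested, with the mean level over the 6 libraries as log2(CPM + 1) on the horizontal axis and the log2 fold change of iHoxc8 minus control on the vertical axis; red and blue points had an adjusted p under 0.01 (edgeR), and dashed lines mark a log2 fold change of 2 in either direction. Hoxc8 stands alone at 13.25, Hprt, Gm364, ATP8 and Grb10 lie between 4.01 and 4.34, and most genes that passed lie within the dashed lines.

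Genes of motor columns and pools were higher more often than lower. Of 29 such genes tested, 7 rose, 1 fell and 21 did not pass, and their median log2 fold change was 0.41, against 0.06 over the 12998 genes with a mean of at least 1 CPM. The number that rose was 5 without control replicate 3 and 5 without iHoxc8 replicate 3, and it was 8 without control replicate 1 and 8 without iHoxc8 replicate 2. The risers were Foxp1, Aldh1a2, Cdh7, Runx1, Etv1, Met and Alcam, and Nkx6-2 fell. The adhesion gene Cdh7 had the largest difference of the list, at 2.61, and is described with the cadherins. Met, the receptor for hepatocyte growth factor that marks a subset of limb-innervating MNs, stood at 10.8, 8.05 and 7.04 CPM in control and at 23.9, 24.0 and 24.6 CPM in iHoxc8. Etv1, an ETS factor of motor pools, stood at 4.05, 5.43 and 2.55 CPM in control and at 12.8, 10.1 and 10.9 CPM in iHoxc8. Neither gene overlapped between the groups, and they rose by 1.48 and 1.49 on the log2 scale (SE 0.23 for both, adjusted p = 0.000576 and 0.000663 by edgeR). Runx1, a transcription factor of some brachial MNs, was 5.27 ± 1.68 CPM in control and 16.6 ± 5.07 CPM in iHoxc8. It rose by 1.65 (adjusted p = 0.00188 by edgeR), but its adjusted p was 0.0214 without control replicate 3, 0.0123 without iHoxc8 replicate 1 and 0.0192 without iHoxc8 replicate 3. Alcam, a cell adhesion molecule of MNs, was 14.5 ± 3.50 CPM in control and 35.3 ± 4.89 CPM in iHoxc8. Its rise was 1.28 (adjusted p = 0.00111 by edgeR), with an adjusted p of 0.0139 without control replicate 3 and 0.0101 without iHoxc8 replicate 3. Nkx6-2, a homeodomain factor of ventral progenitors, fell by 1.81 (SE 0.27, adjusted p = 0.000426 by edgeR), from 11.1 ± 3.13 to 3.17 ± 0.90 CPM. Among members that did not pass, Lhx1, a factor of the lateral LMC division, had a log2 fold change of 0.09 (adjusted p = 0.77 by edgeR). Pou3f1, of a brachial motor pool, had 0.49 and Ret, a receptor for GDNF, had -0.22. Etv4, an ETS factor of motor pools, had -0.67 (adjusted p = 0.035).

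**Figure D2:**
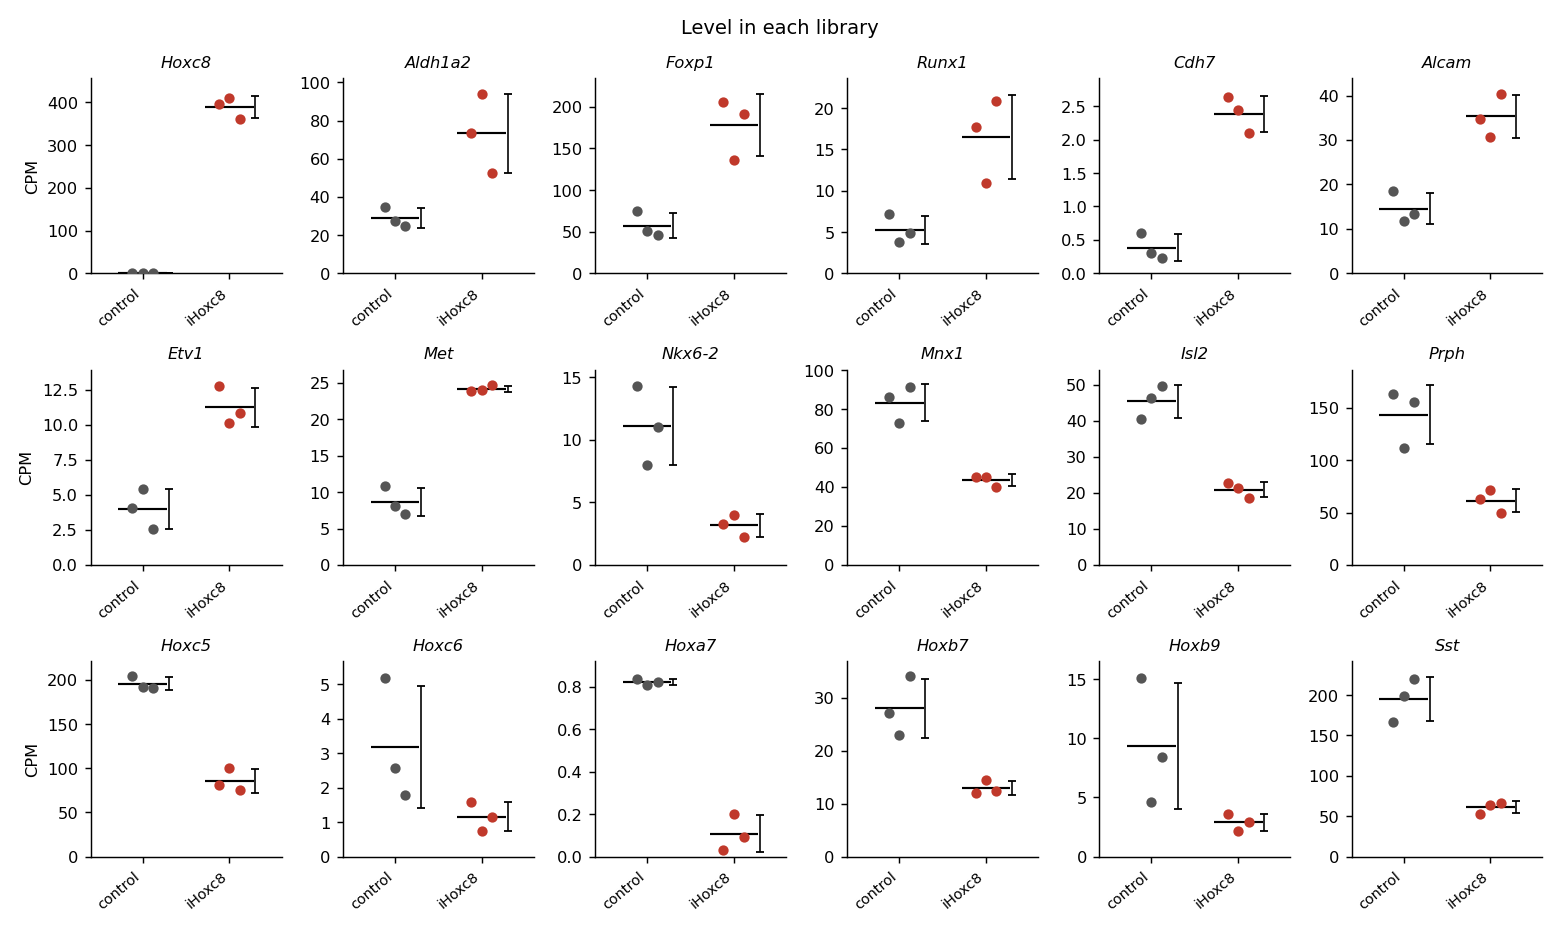
Each panel gives 1 gene, with the level in CPM on a linear axis from 0, 1 point for each library (replicates 1 to 3 from left to right), a bar at the mean and an error bar of 1 SD, for control (gray) and iHoxc8 (red). In these 18 genes, chosen from those that passed, the 3 libraries of a group lie apart from the 3 of the other, as they do for 19.8% of all genes tested.

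The genes that MNs share gave a mixed picture. Of 18 genes of the core list, 2 rose, 3 fell and 13 did not pass, with a median log2 fold change of 0.11. DESeq2 gave 2 higher and 6 lower, and edgeR gave 6 lower both in a fit of the 6 libraries alone and in a fit of the 15 day 4 libraries. The number that fell was 5 with the trend over gene span removed or with every gene of at least 1 count in any library, 1 without control replicate 3 and 1 without iHoxc8 replicate 3, and 0 rose without control replicates 1 or 3 or iHoxc8 replicates 1 or 3 and 1 without control replicate 2 or iHoxc8 replicate 2. Mnx1, the MN homeodomain factor, stood at 86.2, 72.7 and 91.1 CPM in control and at 45.2, 45.2 and 40.1 CPM in iHoxc8. Isl2, a LIM homeodomain factor of young MNs, stood at 40.5, 46.2 and 49.6 CPM in control and at 22.8, 21.3 and 18.6 CPM in iHoxc8. Prph, the intermediate filament peripherin, stood at 163, 112 and 156 CPM in control and at 62.9, 71.1 and 49.4 CPM in iHoxc8. For these 3 genes each iHoxc8 library lay below each control library. Mnx1 fell by 0.94, Isl2 by 1.12 and Prph by 1.23 on the log2 scale (SEs 0.17, 0.22 and 0.20), with adjusted p-values of 0.00188, 0.00418 and 0.000851 by edgeR. The adjusted p of Mnx1 was 0.0136 without control replicate 3 and 0.0145 without iHoxc8 replicate 3, and that of Isl2 was 0.0277, 0.0127 and 0.0248 without control replicate 3, iHoxc8 replicate 1 and iHoxc8 replicate 3. The other genes that define the labeled cells did not pass in the fit of all 18 libraries, though 3 of them did in other fits. Isl1, the partner of Lhx3 in MN specification, had a log2 fold change of 0.63 (adjusted p = 0.128 by edgeR), and Lhx3 had -0.80 (adjusted p = 0.0185). In the fit of the 15 day 4 libraries their adjusted p-values were 0.00883 and 0.00166, and that of Lhx3 was 0.00315 by DESeq2 and 0.00994 in the fit of the 6 libraries. Chat, which makes acetylcholine, had -0.98 (adjusted p = 0.0113), and passed in 7 of 15 alternatives, with adjusted p-values from 0.000404 by DESeq2 to 0.0715 without control replicate 3. It overlaps Slc18a3, the vesicular acetylcholine transporter that lies within it, which had -0.31 (adjusted p = 0.33). The neuronal tubulin Tubb3 had 0.18 (adjusted p = 0.633). Nefh, the heavy neurofilament, rose by 0.60 with an adjusted p of 0.00961, but it overlaps Ap1b1, and its adjusted p was 0.0129 to 0.0538 without any 1 of the 6 libraries. Among markers of hindbrain MNs, Phox2a, Tbx20, Tbx2 and Rgs4 had log2 fold changes of 0.78, 1.03, 0.72 and 0.87, with adjusted p-values of 0.11, 0.017, 0.068 and 0.017. The 7 genes of that list summed to 45.2 to 48.9 CPM in control and 77.8 to 90.6 CPM in iHoxc8.

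Beside Hoxc8, the Hox genes that passed all fell. Of the 15 genes of paralog groups 1 to 5, 0 rose, 1 fell and 14 did not pass the edgeR test, with a median log2 fold change of -0.30. Hoxc5 (chromosome 15, 103014008 to 103017429), which lies beside Hoxc6 and Hoxc4 in the cluster that holds Hoxc8, was the gene that fell. It stood at 204, 192 and 191 CPM in control and at 81.5, 100.2 and 75.1 CPM in iHoxc8, with no overlap, and fell by 1.19 on the log2 scale (SE 0.15, adjusted p = 6.66e-05 by edgeR). It overlaps the gene of the microRNA Mir615. Hoxc4 had -0.14 (adjusted p = 0.56). The 15 genes together summed to 1608 to 1704 CPM in control and 1332 to 1346 CPM in iHoxc8. Of these, 6 had an unadjusted p under 0.05 in edgeR, 1 higher and 5 lower in iHoxc8. In DESeq2's Wald test 4 were lower and 0 higher at an adjusted p under 0.01. Without control replicate 2, 2 of them fell in edgeR.

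Of the 24 genes of paralog groups 6 to 13, 17 were tested and 8 of those had 3 counts or fewer in each of the 6 libraries. Hoxc8 rose, and Hoxa7, Hoxb7, Hoxb9 and Hoxc6 fell. Without control replicate 1, iHoxc8 replicate 2 or iHoxc8 replicate 3, 2 of them fell. Hoxa7 (chromosome 6, 52215623 to 52218573) had 26, 21 and 22 counts in control and 1, 6 and 3 counts in iHoxc8. Hoxb7 stood at 27.1, 23.0 and 34.0 CPM in control and at 12.1, 14.5 and 12.4 CPM in iHoxc8. Hoxc6, the gene whose transgene the control line carries, stood at 5.17, 2.58 and 1.80 CPM in control and at 1.57, 0.735 and 1.16 CPM in iHoxc8. In control its reads do not separate that transgene from the endogenous gene. These 3 genes did not overlap between the groups, but the control values of Hoxc6 spread widely, with replicate 3 close to the highest iHoxc8 library. Hoxa7 fell by 2.92, Hoxb7 by 1.11, Hoxb9 by 1.68 and Hoxc6 by 1.47 on the log2 scale, with adjusted p-values of 0.000475, 0.000917, 0.00281 and 0.00458 by edgeR. For Hoxb7 the adjusted p was 0.0109 without control replicate 3. For Hoxb9 it was 0.0188, 0.0101 and 0.0149 without control replicate 1, iHoxc8 replicate 2 and iHoxc8 replicate 3, and for Hoxc6 it was 0.0327, 0.0145 and 0.0221 without the same 3 libraries. Hoxb8, a paralog of Hoxc8, was 178 CPM in control and 148 CPM in iHoxc8, a log2 fold change of -0.26 (adjusted p = 0.32). The 9 cofactor genes of the Pbx, Meis and Pknox families lay between -0.33 and 0.21, and 0 of them passed, with 1 at an unadjusted p under 0.05 in edgeR and 0 in DESeq2.

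Genes that handle RA moved in both directions. Of 20, 1 rose, 3 fell and 16 did not pass, with a median log2 fold change that rounds to 0. Aldh1a2 was the riser, and 2 genes rose without control replicate 1. Crabp1, which binds RA in the cytoplasm, stood at 342, 344 and 557 CPM in control and at 150, 189 and 149 CPM in iHoxc8. Rxrg, a nuclear receptor that pairs with RA receptors, stood at 26.9, 23.8 and 27.6 CPM in control and at 10.2, 11.6 and 10.04 CPM in iHoxc8. Both were lower in every iHoxc8 library than in any control library. They fell by 1.35 and 1.30 (SEs 0.19 and 0.16, adjusted p = 0.000227 and 6.66e-05 by edgeR). Crabp2 fell by 0.96 (adjusted p = 0.00561), with adjusted p-values of 0.0567, 0.0303 and 0.0307 without control replicate 3, iHoxc8 replicate 1 and iHoxc8 replicate 3. Cyp26b1, which degrades RA, had 1.02 (adjusted p = 0.017), and the receptors Rara, Rarb and Rarg had 0.15, 0.35 and 0.07.

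Cadherins and protocadherins, adhesion proteins by which neurons of a motor pool group together, were higher as a list. Of 29 tested, 7 rose, 0 fell and 22 did not pass, and the median log2 fold change was 0.66. By edgeR, 18 had an unadjusted p under 0.05 in the higher and 0 in the lower direction, and DESeq2 gave 10 and 0 at an adjusted p of 0.01. Over all genes DESeq2 gave 513 higher and 823 lower at that level. The number that rose was 4 without control replicate 3, 4 without iHoxc8 replicate 1 and 4 without iHoxc8 replicate 3. Cdh7 (chromosome 1, 109982237 to 110145272) had 19, 8 and 6 counts in control and 89, 73 and 67 counts in iHoxc8. Cdh12 had 33, 15 and 19 counts in control and 133, 68 and 131 in iHoxc8, and the X-linked Pcdh11x had 12, 13 and 8 in control and 67, 37 and 77 in iHoxc8. All 3 genes were higher in each iHoxc8 library than in any control library, and iHoxc8 replicate 2 was the lowest of its group for Cdh12 and Pcdh11x. They rose by 2.61, 2.11 and 2.24 on the log2 scale (SEs 0.37, 0.32 and 0.32), with adjusted p-values of 0.00027, 0.000421 and 0.000238 by edgeR. Pcdh17, Pcdh10, Pcdh7 and Cdh6 rose by 1.84, 1.27, 1.11 and 0.72. For Pcdh17 the adjusted p was 0.0377, 0.0261 and 0.0192 without control replicate 3, iHoxc8 replicate 1 and iHoxc8 replicate 3. The classical cadherins Cdh2 and Cdh13 had 0.34 and -0.05 (adjusted p = 0.25 and 0.94), and Cdh20, a cadherin of some motor pools, had 1.38 (adjusted p = 0.013). Cdh12, Pcdh7, Pcdh10, Pcdh11x and Pcdh17 overlap other annotated genes.

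Long genes as a class stood higher than in control in 2 of the iHoxc8 libraries, and also in the iHoxc9 and iHoxc10 libraries. When the 12657 genes with a mean of at least 1 CPM and a known span were split by span into 5 quintiles of equal size, the median log2 fold change went from -0.22 in the shortest quintile (median span 3.74 kb) over -0.07, 0.05 and 0.16 to 0.27 in the longest (median span 133 kb). In the shortest quintile 25 genes rose and 120 fell, and in the longest 86 rose and 13 fell. In single libraries, the level of the longest quintile less that of the shortest, each relative to the mean of the 15 day 4 libraries, was -0.26, -0.09 and -0.64 on the log2 scale in control replicates 1 to 3. It was 0.24, -0.20 and 0.31 in iHoxc8 replicates 1 to 3, so that iHoxc8 replicate 2 lay among the control libraries. In iHoxc6, which shares line and run with control, it was -0.23, -0.35 and -0.15 in replicates 1 to 3. It was 0.33, 0.21 and 0.19 in iHoxc9 and 0.40, 0.24 and 0.07 in iHoxc10, so the trend was not particular to iHoxc8. The cadherins of at least 1 CPM had a median span of 158 kb, and the column and pool genes 184 kb. With each library's trend over gene span removed, a setting added after the data had been seen, 5 cadherins rose and 0 fell, with a median of 0.46, against 0.01 over all genes of at least 1 CPM. The same 7-to-1 split was seen among column and pool genes, with a median of 0.29. Foxp1, Aldh1a2 and Cdh7 then rose by 1.25, 1.15 and 2.36 (adjusted p = 5.52e-06, 0.00507 and 0.000812 by edgeR). Over all genes, 180 rose and 145 fell in that setting. By GC content, the median log2 fold change was 0.21 in the quintile of lowest GC and -0.01 in that of highest.

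**Figure D3:**
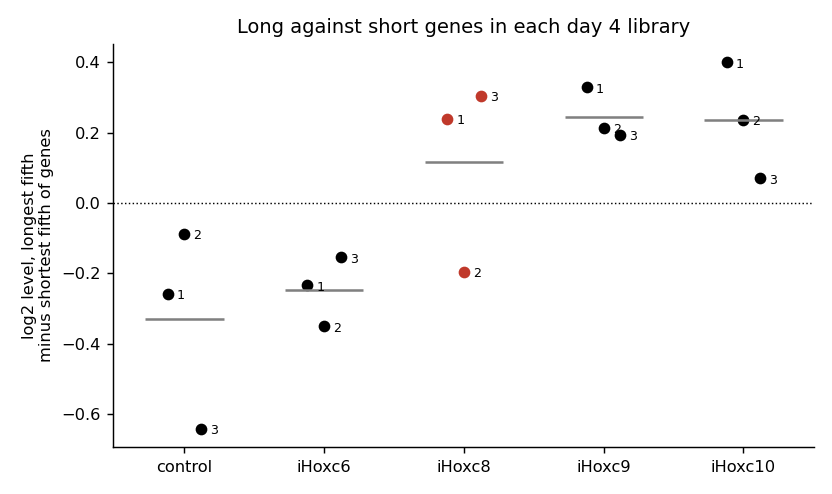
For each of the 15 day 4 libraries the point gives the median log2 level of the longest quintile of genes minus that of the shortest quintile, relative to the mean over these libraries, on the vertical axis, with the groups on the horizontal axis, replicate numbers beside the points, gray bars at group means and iHoxc8 in red. Control replicate 3 is lowest at -0.64, and iHoxc8 replicates 1 and 3 stand at 0.24 and 0.31 while replicate 2 stands at -0.20. The iHoxc6 libraries lie at -0.35 to -0.15, those of iHoxc9 at 0.19 to 0.33 and those of iHoxc10 at 0.07 to 0.40.

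Few axon guidance and ion channel genes passed the test, and those with an unadjusted p under 0.05 were mostly higher in iHoxc8. Of 41 genes of the Eph, ephrin, Slit, Robo and netrin families, 3 rose and 0 fell, with a median log2 fold change of 0.20. By edgeR 14 were higher and 3 lower at an unadjusted p under 0.05, and by DESeq2 4 and 1 at an adjusted p of 0.01. Over all genes tested, 2482 were higher and 2383 lower at an unadjusted p under 0.05 in edgeR. DESeq2 called 513 higher and 823 lower at an adjusted p under 0.01. Unc5c, a netrin receptor for repulsion, stood at 16.7, 13.1 and 11.4 CPM in control and at 52.3, 31.9 and 51.8 CPM in iHoxc8. The groups did not overlap, and iHoxc8 replicate 2 lay between the control libraries and the other two. Unc5c rose by 1.72 (SE 0.23, adjusted p = 0.000161 by edgeR). Epha7 and Ephb1 rose by 0.99 and 0.82, but neither had an adjusted p under 0.01 without control replicate 3 (0.0229 and 0.0348), iHoxc8 replicate 1 (0.0229 and 0.0287) or iHoxc8 replicate 3 (0.0114 and 0.0276), and that of Ephb1 was 0.0173 without control replicate 1. The number that rose was 6 without iHoxc8 replicate 2, 5 without control replicate 2, and 1 without control replicate 3, iHoxc8 replicate 1 or iHoxc8 replicate 3. Those of at least 1 CPM had a median span of 148 kb. With the trend over gene span removed, 2 of the list rose and 1 fell, and the adjusted p of Ephb1 was 0.0883 by edgeR.

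Of 31 semaphorins, plexins and neuropilins, 2 rose, Sema3a by 1.53 and Plxnb2 by 0.72, and 0 fell. By edgeR 13 were higher and 1 lower at an unadjusted p under 0.05, and by DESeq2 6 were higher and 0 lower at an adjusted p of 0.01. The count that rose was 0 without control replicate 3, iHoxc8 replicate 1 or iHoxc8 replicate 3, 4 without iHoxc8 replicate 2, and 1 without control replicate 1. With the trend over gene span removed, 1 rose and 0 fell, and the adjusted p of Sema3a was 0.0242 by edgeR. Of 41 voltage-gated channels 2 rose and 0 fell. At an unadjusted p under 0.05 in edgeR 12 were higher and 1 lower, and DESeq2 gave 2 and 0 at an adjusted p of 0.01. Kcnd2, a potassium channel, had 21, 4 and 11 counts in control and 76, 42 and 73 counts in iHoxc8, and the L-type calcium channel Cacna1d had 12, 10 and 7 in control and 37, 24 and 41 in iHoxc8. They rose by 2.21 and 1.61 (adjusted p = 0.00151 and 0.00559 by edgeR). The number that rose was 0 without control replicate 3 or iHoxc8 replicate 1 and 1 without control replicate 1 or iHoxc8 replicate 3. Both missed the threshold without control replicate 3 (0.0142 and 0.0561) or iHoxc8 replicate 1 (0.0102 and 0.0297). Cacna1d, which overlaps Chdh and Dcp1a, also missed it without control replicate 1 (0.0143) or iHoxc8 replicate 3 (0.0409). The channels of at least 1 CPM had a median span of 130 kb. With the trend over gene span removed, 1 channel rose and 0 fell, and Cacna1d missed the threshold (0.0136). Of 25 glutamate receptor genes, 0 passed in edgeR, where 10 had an unadjusted p under 0.05, and 1 passed in DESeq2. Without control replicate 2 or iHoxc8 replicate 2, 1 passed in edgeR, and with the trend over gene span removed 2 fell.

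Interneuron genes had low levels in both groups and lay mostly lower in iHoxc8. Of 30 tested, 4 had a mean of at least 1 CPM, 0 rose and 3 fell, and the median log2 fold change was -0.76. At an unadjusted p under 0.05 in edgeR, 3 were higher and 12 lower, and by DESeq2 0 rose and 2 fell. The sum of the list was 13.4 to 17.0 CPM in control and 11.1 to 12.8 CPM in iHoxc8. Tal1, a factor of V2b interneurons, had 42, 35 and 44 counts in control and 6, 4 and 11 in iHoxc8. Slc32a1, the vesicular transporter of inhibitory transmitters, had 14, 18 and 22 counts in control and 4, 4 and 5 in iHoxc8. In both genes the highest iHoxc8 library lay below the lowest control library. They fell by 2.70 and 2.23 on the log2 scale (SEs 0.51 and 0.46), with adjusted p-values of 0.00303 and 0.0062 by edgeR. Without control replicate 3 or iHoxc8 replicate 1 the adjusted p of Tal1 was 0.0186 or 0.0197, and 1 gene of the list fell. That of Slc32a1 was 0.0515, 0.0378, 0.0121 and 0.0285 without control replicate 3 and iHoxc8 replicates 1, 2 and 3, and without control replicate 2 the list had 5 that fell. Slc32a1 overlaps Gm14204.

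Of 27 neuropeptide and receptor genes, 1 rose, 3 fell and 23 did not pass, with a median log2 fold change of -0.35. Sst, which encodes the peptide somatostatin, stood at 166, 199 and 220 CPM in control and at 52.4, 63.7 and 66.3 CPM in iHoxc8. The ranges lay far apart, and Sst fell by 1.68 (SE 0.19, adjusted p = 1.08e-05 by edgeR). Its receptor Sstr1 fell by 1.72, from 5.80 ± 2.10 to 1.77 ± 0.13 CPM, with an adjusted p of 0.00547 that was 0.0108 to 0.0329 without any 1 library other than control replicate 2. Npy, the peptide neuropeptide Y, had 54, 37 and 34 counts in control and 121, 159 and 99 in iHoxc8 and rose by 1.43 (adjusted p = 0.00426 by edgeR). Its adjusted p was 0.0463, 0.0165 and 0.0145 without control replicate 3, iHoxc8 replicate 1 and iHoxc8 replicate 2. The number that fell was 1 without control replicates 1 or 3 or iHoxc8 replicates 1 or 3, and without control replicate 2 there were 4 that rose, against 0 without control replicate 3 or iHoxc8 replicates 1 or 2.

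**Figure D4:**
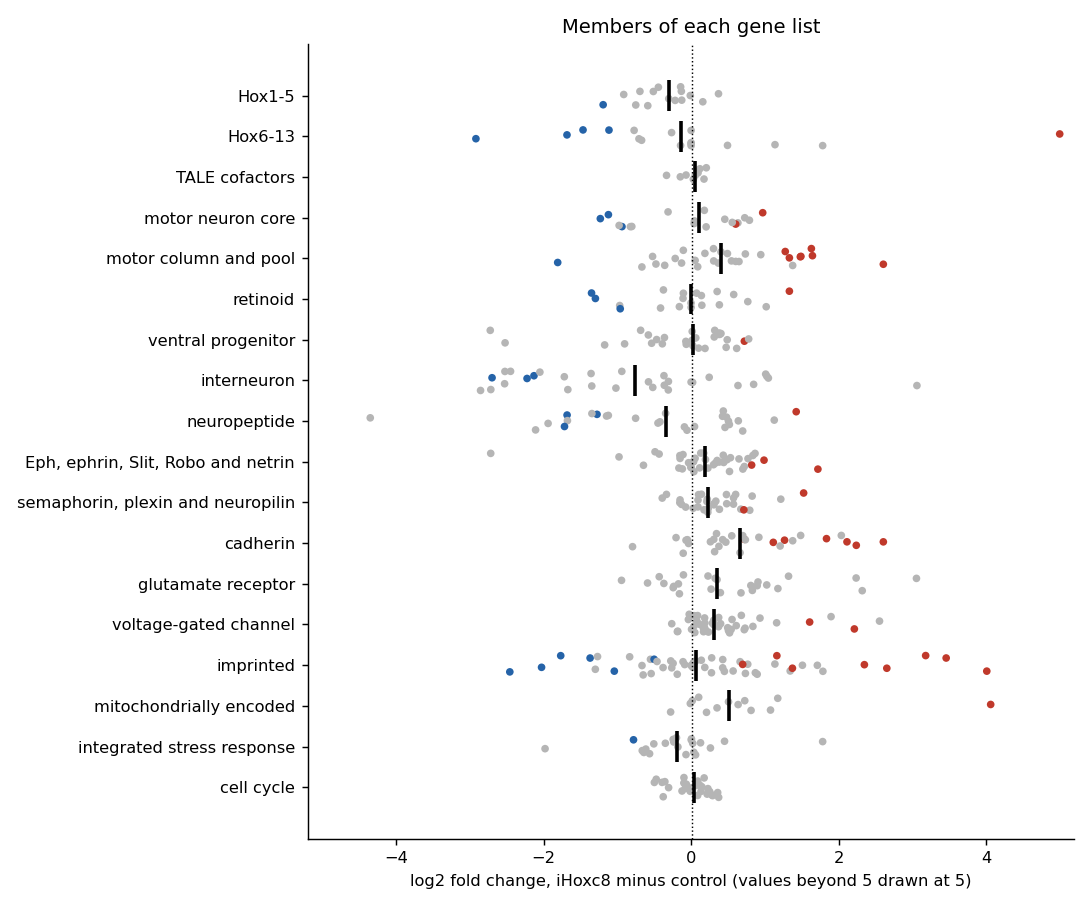
Each point is a gene tested, with the log2 fold change of iHoxc8 minus control on the horizontal axis and its list on the vertical axis; red points rose, blue points fell (adjusted p under 0.01, edgeR), gray points did not pass, black bars mark list medians and the dotted line the median of all genes tested, 0.02. The cadherin and column and pool medians lie to its right at 0.66 and 0.41, the interneuron median to its left at -0.76, and Hoxc8, at 13.25, is drawn at 5.

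Imprinted genes, which are read from the copy of 1 parent, held several of the largest differences. Of 53 tested, 8 rose, 6 fell and 39 did not pass, with a median of 0.06. Grb10 (chromosome 11, 11930499 to 12037428), an adaptor that restrains growth factor signaling, stood at 23.1, 32.9 and 18.5 CPM in control and at 370, 394 and 438 CPM in iHoxc8. Cdkn1c, an inhibitor of the cell cycle, stood at 33.3, 19.02 and 31.3 CPM in control and at 127, 173 and 126 CPM in iHoxc8. Igf2 (chromosome 7, 142650768 to 142666816), a growth factor, stood at 3.79, 6.78 and 5.02 CPM in control and at 58.6, 61.0 and 51.4 CPM in iHoxc8. The 3 genes were higher by 4.01, 2.35 and 3.46 on the log2 scale (SEs 0.22, 0.25 and 0.31, adjusted p = 1.03e-10, 6.38e-06 and 6.7e-07 by edgeR), with wide gaps between the groups. H19 (chromosome 7, 142575530 to 142578146), the noncoding neighbor of Igf2, stood at 1412, 418 and 1118 CPM in control and at 199, 181 and 156 CPM in iHoxc8. It fell by 2.46 (adjusted p = 0.00157 by edgeR), with 0.0114 without iHoxc8 replicate 3. At another imprinted cluster, on chromosome 15, Peg13 fell by 2.03 (SE 0.20, adjusted p = 2.93e-06), from 335 ± 21.8 to 82.1 ± 10.4 CPM. Its neighbors Kcnk9, a potassium channel, and Trappc9 rose by 2.65 and 1.37 (adjusted p = 0.000816 and 0.00273). Peg13 lies within Trappc9, so reads of the overlap are uncertain, and the adjusted p of Kcnk9 was 0.0116 without control replicate 3. Zim1 rose by 3.18 from 6, 1 and 6 counts in control to 59, 20 and 60 in iHoxc8. The counts of the list were 5 higher and 3 lower without control replicate 3, and 3 or 2 lower without iHoxc8 replicate 1 or 3.

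The same genes were read in the other induced lines, whose comparisons with control use the same 3 control libraries. In iHoxc6, which is the control line with Dox, the log2 fold change was -0.07 for Grb10, 0.10 for Cdkn1c, 1.64 for Igf2, -0.10 for H19 and 0.11 for Peg13. In iHoxc9 the values were 1.48, 1.13, 2.84, -0.44 and -0.22 in that order, and in iHoxc10 they were 3.17, 2.87, 4.56, -1.22 and -1.38. Set directly against iHoxc6, iHoxc8 was higher in Grb10 by 4.08 (adjusted p = 7.58e-11 by edgeR) and lower in Peg13 by a log2 fold change of -2.14 (adjusted p = 1.59e-06). For Grb10 the group means were 24.9 CPM in control, 23.6 in iHoxc6, 69.1 in iHoxc9, 223 in iHoxc10 and 401 in iHoxc8, and the last step, 0.85, did not pass (adjusted p = 0.0109). Line and Hox gene cannot be told apart here either.

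**Figure D5:**
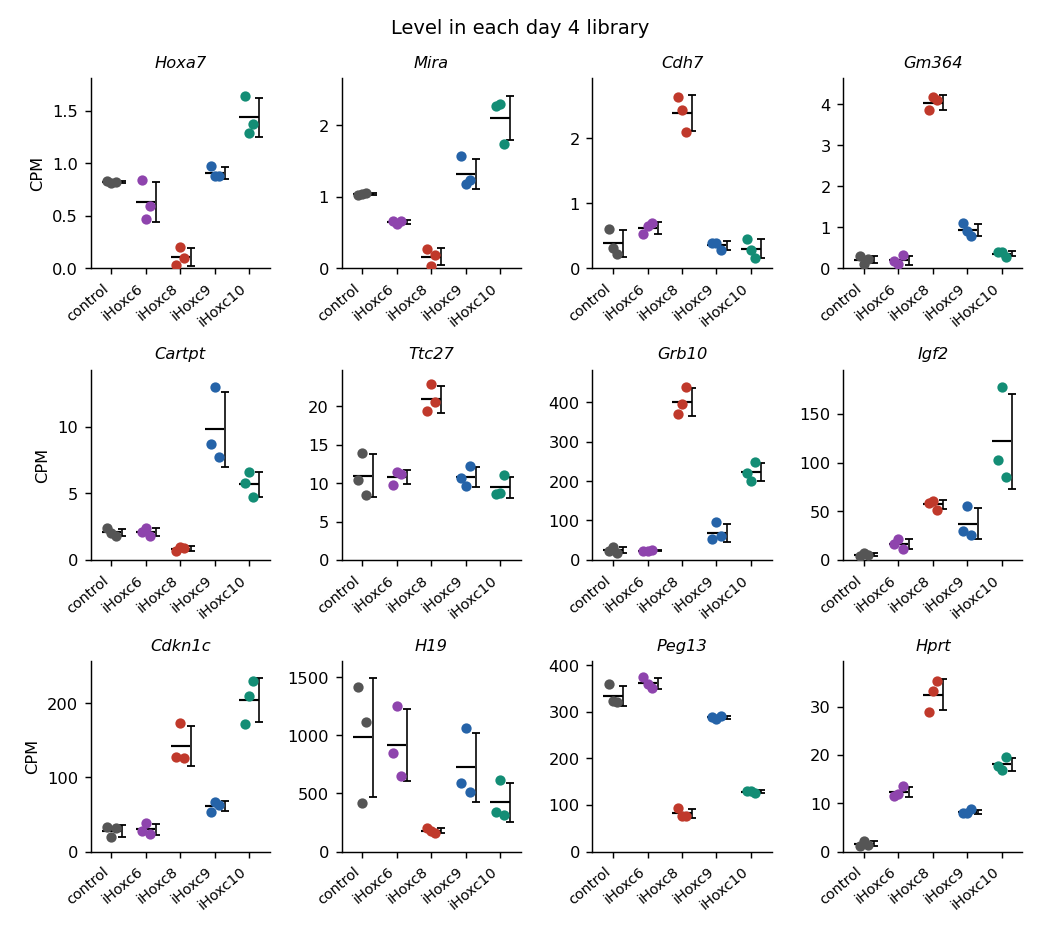
Each panel gives 1 gene in the 5 day 4 groups, with the level in CPM on a linear axis from 0, 1 point for each library, a bar at the mean and an error bar of 1 SD (n = 3). Hoxa7, Mira and Cartpt are lowest and Cdh7, Gm364 and Ttc27 highest in iHoxc8, while the means of Igf2 and Cdkn1c are higher in iHoxc10 than in iHoxc8, differences that did not pass (adjusted p = 0.0169 and 0.231 by edgeR).

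The locus that holds the transgene differed as well. Hprt, a purine salvage enzyme beside whose start the transgene lies, stood at 1.25, 2.23 and 1.35 CPM in control and at 28.9, 33.3 and 35.3 CPM in iHoxc8. It was higher in every iHoxc8 library and rose by 4.34 (SE 0.19, adjusted p = 1.47e-12 by edgeR). Against the same control libraries its log2 fold change was 2.94 in iHoxc6, 2.36 in iHoxc9 and 3.49 in iHoxc10. Of the 10 neighbors of Hprt tested, 0 passed in edgeR, where 4 were higher at an unadjusted p under 0.05, and 2 passed in DESeq2. Phf6 had 0.68 and Rap2c 0.80 (adjusted p = 0.014 and 0.016). Without control replicate 2 the count of the list with Hprt was 4, and without iHoxc8 replicate 2 it was 3.

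Of the 13 protein genes of the mitochondrial genome, 1 rose. ATP8 stood at 12.7, 4.16 and 13.7 CPM in control and at 169, 131 and 213 CPM in iHoxc8, and rose by 4.06 (adjusted p = 0.00065 by edgeR). It overlaps ATP6, whose own log2 fold change was 0.73 (adjusted p = 0.21), so its reads are uncertain. ND2 and ND3 had 1.08 and 1.18 (adjusted p = 0.013 and 0.014). The mitochondrial share of CPM was 1.91% to 3.22% in control and 3.00% to 3.06% in iHoxc8. With the trend over gene span removed, 5 of the 13 rose, and without iHoxc8 replicate 2 it was 2.

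Against the other lines directly, iHoxc8 differed from iHoxc6 in 744 genes (3.55%, of which 3.07% higher and 0.482% lower) at an adjusted p under 0.01. It differed from iHoxc9 in 1124 (5.37%, of which 2.42% higher and 2.95% lower) and from iHoxc10 in 614 (2.93%, of which 1.26% higher and 1.67% lower). In 10 genes (0.0477%) iHoxc8 lay apart from control and from each of these lines in 1 direction, 6 higher and 4 lower. The higher genes were Hoxc8, Gm364, Cdh7, Ttc27, Hprt and Stxbp6, and the lower genes were Hoxa7, Mira, Cartpt and Lrrc20. Gm364, an X-linked gene of unknown role, had 9, 3 and 6 counts in control and 130, 125 and 131 in iHoxc8. Mira, a noncoding RNA that lies next to Hoxa7 on the same strand, had 32, 27 and 28 counts in control and 9, 1 and 6 in iHoxc8. Cartpt, which encodes a neuropeptide, had 74, 52 and 48 counts in control and 23, 30 and 28 in iHoxc8. The groups did not overlap in these genes. The log2 fold changes against control were 4.21, -2.61 and -1.28 (SEs 0.30, 0.41 and 0.26), with adjusted p-values of 1.15e-08, 0.000627 and 0.00532 by edgeR. The adjusted p of Cartpt was 0.0206, 0.0147, 0.0378 and 0.0252 without control replicates 1 and 3 and iHoxc8 replicates 1 and 3. Hoxa7 and Mira were lower in iHoxc8 than in iHoxc6 by log2 fold changes of -2.53 and -1.94, in comparison with iHoxc9 by -3.07 and -2.96, and in comparison with iHoxc10 by -3.72 and -3.63. Ttc27, a tetratricopeptide repeat gene, rose by 0.94 against control (adjusted p = 0.00188), with 0.0234 without control replicate 3 and 0.0116 without iHoxc8 replicate 3.

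The motor column genes compared with the other lines as follows. Against the same control libraries, the log2 fold change of Foxp1 was 1.03 in iHoxc6, 0.83 in iHoxc9 and 2.05 in iHoxc10, and that of Aldh1a2 was 1.61, -0.42 and 2.66. Directly, iHoxc8 and iHoxc6 differed by 0.60 in Foxp1 (adjusted p = 0.0341 by edgeR) and by -0.27 in Aldh1a2 (adjusted p = 0.446), neither past the threshold, while iHoxc8 stood 1.76 above iHoxc9 (adjusted p = 2.67e-06) and -1.33 from iHoxc10 (adjusted p = 0.000217) in Aldh1a2. Runx1 was higher in iHoxc8 than in iHoxc6 by 1.79 (adjusted p = 0.000812) and than in iHoxc9 by 4.45 (adjusted p = 6.07e-09), and its difference from iHoxc10, 1.00, did not pass (adjusted p = 0.0351). Alcam was higher in iHoxc8 than in iHoxc6 by 1.33 and than in iHoxc9 by 1.30 (adjusted p = 0.000733 and 0.000177), and its 0.81 over iHoxc10 did not pass (adjusted p = 0.0219). Met, Etv1 and Nkx6-2 also differed from control in other lines. In iHoxc6, iHoxc9 and iHoxc10, Met had 0.27, 2.53 and 1.77, Etv1 0.26, 1.38 and 1.01, and Nkx6-2 -1.79, -1.94 and -1.94. Directly, iHoxc8 stood above iHoxc6 in Met and Etv1 by 1.21 and 1.23 (adjusted p = 0.00219 and 0.0023 by edgeR). Against iHoxc9 it differed by -1.04 in Met (adjusted p = 0.00249) and by 0.11 in Etv1 (adjusted p = 0.9).

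To show the start regions of genes that set iHoxc8 apart, the promoters of Cdh7, Gm364 and Hoxa7 follow, with that of Aldh1a2 as the marker enzyme of the LMC. They are RefSeq sequences of GRCm38.p6, from 250 bases before to 50 bases after an annotated start. Capitals mark TAAT, the core of homeodomain sites, or its reverse complement ATTA, searched on both strands.
Cdh7 (chr1:109982650-109982949, plus strand): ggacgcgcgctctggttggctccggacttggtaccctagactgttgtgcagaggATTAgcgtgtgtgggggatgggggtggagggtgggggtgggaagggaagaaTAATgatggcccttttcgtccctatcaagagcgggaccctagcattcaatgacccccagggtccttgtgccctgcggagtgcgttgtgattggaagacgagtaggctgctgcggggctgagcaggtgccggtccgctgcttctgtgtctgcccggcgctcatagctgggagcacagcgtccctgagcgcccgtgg
Gm364 (chrX:57408899-57409198, plus strand): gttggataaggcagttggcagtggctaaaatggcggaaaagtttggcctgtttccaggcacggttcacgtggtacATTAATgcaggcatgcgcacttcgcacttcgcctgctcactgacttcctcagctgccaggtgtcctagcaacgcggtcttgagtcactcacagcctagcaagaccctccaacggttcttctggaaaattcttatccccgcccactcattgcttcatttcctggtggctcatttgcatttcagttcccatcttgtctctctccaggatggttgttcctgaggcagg
Hoxa7 (chr6:52218524-52218823, minus strand): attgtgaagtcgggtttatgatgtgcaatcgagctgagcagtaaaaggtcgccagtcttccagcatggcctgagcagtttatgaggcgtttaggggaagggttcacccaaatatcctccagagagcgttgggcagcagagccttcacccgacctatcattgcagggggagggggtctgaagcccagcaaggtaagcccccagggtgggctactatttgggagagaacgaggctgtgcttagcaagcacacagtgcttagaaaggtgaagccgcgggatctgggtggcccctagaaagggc
Aldh1a2 (chr9:71215539-71215838, plus strand): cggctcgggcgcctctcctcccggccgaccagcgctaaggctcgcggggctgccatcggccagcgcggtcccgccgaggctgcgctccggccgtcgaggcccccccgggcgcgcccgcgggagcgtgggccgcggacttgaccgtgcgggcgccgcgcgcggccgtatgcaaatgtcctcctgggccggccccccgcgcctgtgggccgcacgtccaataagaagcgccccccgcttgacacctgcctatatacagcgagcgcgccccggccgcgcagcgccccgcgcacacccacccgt
Of the promoters of 11 genes looked at, some with several starts, those of Cdh7 and Gm364 held 2 matches each at the starts shown, overlapping in Gm364, and those of Hoxa7 and Aldh1a2 held 0. Of all 32851 promoters of this length, 58.0% held at least 1 match, with a median of 1. The longer letters TGATNNAT or ATNNATCA, as in sites of Hox with Pbx, were found in 8.85% of all promoters and in 0 of the 4 shown. A match is a description of letters and not of binding.

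Marker lists of other cells bore on the comparison as follows, and their part in the results was not tested. Cell cycle genes (30) had 0 called in edgeR with 5 lower at an unadjusted p under 0.05 and 2 lower in DESeq2, and their sum ran from 1971 to 3557 CPM in control, highest in replicate 2, and from 2514 to 2790 CPM in iHoxc8. Without control replicate 2, 3 of them were higher. Of 29 ventral progenitor genes Sox2, which overlaps Sox2ot, rose by 0.72 (adjusted p = 0.0038 by edgeR), with 0.0126 to 0.0462 without control replicates 1 or 3 or iHoxc8 replicates 1 or 3, and their sum was 760 to 1381 CPM in control and 939 to 1249 CPM in iHoxc8. Without control replicate 2, 5 rose and 2 fell. Of 10 pluripotency markers Lin28a fell by 0.92 (adjusted p = 0.00433), with 0.0121 to 0.0352 without control replicate 3 or iHoxc8 replicates 1 or 2. The list summed to 103 to 160 CPM in control and to 60.9 to 81.9 CPM in iHoxc8, of which Lin28a alone held 102 to 159 and 60.0 to 80.5 CPM. Lin28a was the 1 marker with a mean of at least 1 CPM, and the list median was 0.04. In each library 5 of the markers had 3 counts or fewer. Of 10 markers of endothelium and blood, Hba-a1, an alpha globin, had 32, 78 and 35 counts in control and 1, 5 and 14 counts in iHoxc8. It fell by 3.05 (adjusted p = 0.00792), with 0.0174 to 0.0444 without control replicates 2 or 3 or iHoxc8 replicates 1 or 2, and the list summed to 2.36 to 6.55 CPM in control and 1.37 to 2.00 CPM in iHoxc8. Of 11 glial markers Sox9, also a progenitor gene, rose by 0.88 (adjusted p = 0.00859), with 0.0124 to 0.0802 without any 1 library other than control replicate 2, and the list summed to 201 to 256 CPM in control and 205 to 217 CPM in iHoxc8. Of 11 endoderm markers and 14 mesenchyme markers 0 passed in edgeR, where 1 and 6 were lower at an unadjusted p under 0.05, and 0 and 2 in DESeq2. Their sums were 11.6 to 19.1 and 13.9 to 21.7 CPM in control and 17.4 to 23.4 and 14.6 to 19.9 CPM in iHoxc8, and 1 mesenchyme marker fell without control replicate 3. The markers of neural crest and sensory cells summed to 146 to 168 CPM in control and 230 to 249 CPM in iHoxc8. Of these sums, Isl1, also an MN gene, held 76.4 to 115 and 136 to 157 CPM. Among stress and metabolic lists, with 1 gene each of 22, 20 and 25 past the test, Psph, a serine synthesis enzyme of the stress response that overlaps Cct6a, Atf3, an immediate early factor, and Ankrd37, a hypoxia target that overlaps Ufsp2, fell by 0.78, 1.37 and 1.44, and 0 of 20 sterol synthesis genes passed in edgeR (4 higher at an unadjusted p under 0.05, 0 in DESeq2). The adjusted p of Atf3 was 0.0206, 0.0213 and 0.0285 without control replicate 3, iHoxc8 replicate 1 and iHoxc8 replicate 3, and that of Ankrd37 was 0.0371, 0.0314 and 0.0205 without these and 0.0264 without control replicate 1.

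Other genes with large differences belonged to none of these lists. Tagln, an actin-binding protein of smooth muscle, fell by 2.07 (SE 0.29, adjusted p = 0.000223 by edgeR), from 85, 120 and 57 counts in control to 32, 21 and 19 in iHoxc8, and it overlaps Pcsk7. The noncoding gene 5930403L14Rik, which overlaps Prdm16, fell by 2.05 (adjusted p = 9.81e-05). Spp2, a secreted phosphoprotein, fell by 2.59 (adjusted p = 0.00562), but its control values were 2.67, 4.20 and 11.6 CPM, and its adjusted p was 0.1 without control replicate 3 and 0.0103 to 0.0378 without iHoxc8 replicates 1, 2 or 3. Igf2os, the antisense RNA of Igf2, rose by 3.33 with it, and strand was not stated for the counting, so the reads of the pair cannot be told apart. The Entrez genes 100503517 and 100628579, which the tables used here do not pair with a symbol, rose by 2.80 and 2.32, with adjusted p-values of 0.014 to 0.0357 without control replicates 1 or 3 or iHoxc8 replicate 3 for the first and of 0.0117 to 0.0485 without any 1 library other than control replicate 2 for the second.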

How the data were processed

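RNA-seq counts of 18 mouse libraries were analysed, of which 3 iHoxc8 and 3 control libraries are compared here. The authors aligned reads with STAR (2.7.0c, per the submitters' processing notes), assigned them to RefSeq genes of mm10 with featureCounts, merged RefSeq genes that share an Entrez identifier, and deposited unnormalized counts for each replicate. The strand setting is not given in the sources used here, so overlapping genes are uncertain. Of 27179 genes, 25275 matched a RefSeq symbol, with coordinates of GRCm38, the assembly that mm10 names.

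Counts were tested in R 4.3.3 with edgeR 4.0.16 (TMM factors, quasi-likelihood test, Benjamini-Hochberg adjustment) on the 18 libraries together, the group being the only term, over 20944 genes that had 1 count or more in an induced library. The day 2 progenitors thus shared in the estimate of spread. The standard error was taken from the F statistic. Groups and thresholds (adjusted p under 0.01, absolute log2 fold change above 2) follow the labels and the study. The groups of 3 cannot give less than 0.1 in a two-sided exact permutation test.

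Genes were named by a rule: Hoxc8, Aldh1a2, Foxp1 and defining MN genes, Hox, cofactor and MN list genes that passed, up to 12 called genes of each direction with at least 1 CPM and no overlap, up to 4 that passed in each other list, and the 6 with the largest differences from every line and at least 1 CPM in either group. Other members of the lists, Stxbp6 and Lrrc20 were named after their values were seen. Some genes of the rule are not reported here. The members and lists were chosen with earlier results of these data known. Counts of 19707 genes were also simulated from edgeR's own fitted model, with the same mean in all groups apart from the shifted genes. Of genes with at least 1 CPM, 77% of those shifted by 1 on the log2 scale and 100% of those shifted by 3 were recovered, with 1 other call. The simulation held no span trend and no run effect, so it cannot show how the test performs where these are present.

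Alternatives were DESeq2 1.42.0 (Wald test and size factors), other count filters, a log2 fold change above 1, fewer groups in the fit, the replicate number as a block, each library left out in turn and, added after the data were seen, total counts without TMM factors and removal of each library's trend over gene span.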

Additional observations from a re-analysis of the deposited data

Results flagged for a closer look

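In each of the 10 genes named above, iHoxc8 lay apart from control, iHoxc6, iHoxc9 and iHoxc10 neurons in the same direction. All 4 comparisons had an adjusted p under 0.01 by edgeR. Hoxa7, whose smallest absolute log2 difference was 2.53, had a mean under 1 CPM in both control and iHoxc8. The 6 genes listed here had the largest differences among those of at least 1 CPM in either group. They are listed because iHoxc8 lay apart from the other induced lines by these tests, in which line, run and induced gene cannot be told apart. The smallest absolute log2 difference of the 4 was 10.5 for Hoxc8, 2.11 for Gm364, 1.94 for Mira, 1.93 for Cdh7, 1.28 for Cartpt and 0.94 for Ttc27. Hoxc8, Gm364, Cdh7 and Ttc27 were higher in iHoxc8, and Mira and Cartpt were lower. The comparisons share the iHoxc8 libraries, which came from 1 line and 1 sequencing run.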

How the results depend on the processing

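The count of genes at an adjusted p under 0.01 in iHoxc8 against control, 215 higher and 228 lower by edgeR, was 96 and 89 in a fit of the 6 libraries alone, 366 and 773 in a fit of the 15 day 4 libraries and 513 and 823 by DESeq2's Wald test. The lower count was 131 for genes reaching 10 counts in 3 libraries or more, 365 with at least 1 count in any library and 145 with the trend over gene span removed. With each library left out in turn, the counts were 61 to 668 higher and 28 to 907 lower. The counts with a log2 fold change beyond 2 as well, 29 higher and 17 lower, were 133 and 152 beyond 1, 28 lower in the fit of day 4 libraries, 11 lower with the span trend removed, and 16 to 40 higher and 10 to 33 lower with a library left out. The 744, 1124 and 614 genes that differed from iHoxc6, iHoxc9 and iHoxc10 were 1244 and 1006 (iHoxc6 and iHoxc10) in the fit of day 4 libraries, 1576 and 1173 by DESeq2, and 121 to 1311, 832 to 1239 and 362 to 799 with a library left out. The replicate block gave 132 lower genes. The main fit paired no samples by replicate number. The deviations of same-numbered control and iHoxc8 libraries correlated at 0.23, -0.20 and -0.37, and those of other numbers at -0.21 to 0.36. With 3 libraries per group these values cannot decide whether the numbers pair samples. Without TMM factors 201 genes were higher and 287 lower. Of 64 named genes that passed, 29 passed in every alternative and 35 missed the threshold in at least 1. Tubb3 reversed, at -0.026 to 0.24 with a library left out, the lowest being without iHoxc8 replicate 2. The causes were not tested.

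At these depths a gene under 0.0918 to 0.115 CPM in a library cannot be told from 0, and 3 libraries per group limit the precision of each difference. The groups lie in separate runs and lines, so no value within a run exists.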
